A study of Mus musculus with 24 samples.

Results

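A set of 10 genes of T cell identity, activation and checkpoint control was followed through the lungs of adult and aged mice: Cd3e, Cd4, Cd28, Icos, Ctla4, Pdcd1, Lag3, Tigit, Tnfrsf4 and Il2ra. They were taken from the expression table by gene symbol, 10 of 23891 genes. All 10 passed the filter on low expression, a mean over the 24 lungs of at least 1 CPM, the read count of a gene scaled to a common library total.

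A T cell recognizes peptide through its antigen receptor, which signals through the CD3 chains, and helper T cells add the coreceptor CD4, which binds MHC class II. A second, costimulatory signal comes from CD28, ICOS and OX40 (Tnfrsf4), and activated cells then raise CD25 (Il2ra), which makes the IL-2 receptor a high-affinity one. CTLA-4, PD-1 (Pdcd1), LAG-3 and TIGIT appear on activated, regulatory or chronically stimulated T cells and restrain them. In allergic airway disease, helper T cells drive much of the response to inhaled allergen, and glucocorticoids act broadly on lymphocytes.

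Each sample was RNA from the left lung lobe of a C57BL/6 mouse given saline (naïve) or house dust mite extract (HDM, 50 μg per intranasal dose). The 4 groups were naïve adult mice (20 wk, n = 5), naïve aged mice (80 wk, n = 5), HDM-challenged aged mice (80 wk, n = 7) and HDM-challenged aged mice that also received dexamethasone, a synthetic glucocorticoid (HDM + Dex, 4 mg/kg every 72 h, n = 7). Harvest followed the final HDM dose by 24 h. No challenged adult group was analysed here, and aged mice of both naïve and challenged groups were of the same labelled age. Because whole lung was sequenced, fewer T cells and less RNA per T cell cannot be told apart.

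Libraries held an estimated 10.03 to 33.03 M reads, so that 3 reads corresponded to 0.0908 to 0.299 CPM, a floor that covers counting error only. A single noncoding RNA family, 7SL, took 9.92 to 42.0% of the counts, with a median of 16.2% in adult and 10.9% in aged naïve lungs, 28.1% after HDM and 26.8% with Dex. The highest share, 42.0%, was in naïve adult replicate 1, and HDM replicate 3 had the fewest reads, with 3269 genes without a read. The labels give no sex, but Xist and the Y-linked gene Ddx3y separated female from male lungs: 5 of 5 naïve adult, 2 of 5 naïve aged, 2 of 7 HDM and 4 of 7 HDM + Dex lungs were female. The labelled tissue was borne out by its markers, since the 5 lung genes examined (among them Sftpc and Ager) summed to at least 2530 CPM in every lung, and the 7 T cell markers summed to 19.3 to 135 CPM, with no marker at 0. The 4 heart muscle genes examined summed to 18.0 to 1049 CPM and were lower after HDM in 4 of 4, and the part of such tissue in the results was not tested.

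Pdcd1, Ctla4 and Tigit, all inhibitory receptors, have a start site in the RefSeq promoter table used here (build GRCm38.p6), and the 250 bases before that start are shown because Pdcd1 carries the age and HDM differences described next and Ctla4 and Tigit are receptors of the same kind. Capitals mark the letters GGAAA, the core that NFAT factors bind, or TGTGGT, a RUNX core, on either strand.
Pdcd1: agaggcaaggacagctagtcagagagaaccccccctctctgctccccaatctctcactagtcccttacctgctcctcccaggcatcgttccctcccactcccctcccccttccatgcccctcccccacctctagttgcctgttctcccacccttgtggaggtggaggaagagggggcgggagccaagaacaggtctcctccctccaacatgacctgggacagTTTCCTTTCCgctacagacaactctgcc
Ctla4: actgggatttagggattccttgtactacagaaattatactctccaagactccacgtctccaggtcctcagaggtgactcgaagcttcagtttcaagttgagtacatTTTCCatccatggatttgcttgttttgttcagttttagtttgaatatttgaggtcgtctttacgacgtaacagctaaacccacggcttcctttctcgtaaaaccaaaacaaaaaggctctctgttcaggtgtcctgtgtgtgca
Tigit: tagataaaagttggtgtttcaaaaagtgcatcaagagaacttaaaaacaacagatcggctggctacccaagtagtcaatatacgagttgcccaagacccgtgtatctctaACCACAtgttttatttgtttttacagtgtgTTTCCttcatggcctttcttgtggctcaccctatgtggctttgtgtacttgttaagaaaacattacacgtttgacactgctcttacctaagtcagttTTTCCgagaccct

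The Pdcd1 window is chr1:94052554-94052803 (minus strand), and its pair of adjoining GGAAA cores reads as TTTCC from 28 to 19 bases before the start. The Ctla4 window is chr1:60908775-60909024 (plus strand), inside the span that GENCODE M21 gives the gene, with 1 core at 144 to 140 bases before the start. The Tigit window is chr16:43664185-43664434 (minus strand), with GGAAA cores at 110 to 106 and 13 to 9 bases and a TGTGGT match at 140 to 135 bases before the start. A promoter was found for 6 of the 10 genes (also Cd3e, Tnfrsf4 and Il2ra), and all 6 held GGAAA, as did 55.6% of 32851 promoter windows of the same length. TGTGGT was in 1 of 6 (14.05% of all windows), the AP-1 motif TGANTCA in 0 of 6 (6.75%), and the palindromic glucocorticoid response element in 0 of 6 (0.0365%). These matches describe letters only, and the searched motifs do not overlap one another in these windows.

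Several of the genes are neighbours. On chromosome 1, Cd28 (60716800 to 60773359), Ctla4 (60887000 to 60915832) and Icos (60977927 to 61000320) follow each other on the plus strand with gaps of 113.64 and 62.094 kb and 0 protein-coding genes between them (GRCm38, GENCODE M21). Cd4 (124864692 to 124888221) and Lag3 (124904361 to 124911705) lie 16.139 kb apart on the minus strand of chromosome 6. Ctla4 overlaps the pseudogene Rpl18-ps1 and Icos the predicted gene Gm37039, both on the same strand and both with rows of their own, so reads could have been split between them.

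Levels were low throughout, and they can be ranked between genes only per kilobase of exon. In naïve adult lungs, Cd3e (mean 1.30 CPM per kb) and Cd4 (1.08 CPM per kb) led, and Pdcd1 (0.189 CPM per kb) and Lag3 (0.118 CPM per kb) were last. In HDM-challenged aged lungs the leader per kilobase was Ctla4 (4.50 CPM per kb), ahead of Cd4 (3.84), Cd3e (3.07), Tigit (2.64) and Pdcd1 (2.56), with Il2ra (1.10) and Cd28 (1.07) last. Ctla4 was sixth in adult lungs at 0.381 CPM per kb. It also had the highest mean per kilobase in naïve aged lungs (3.44 CPM per kb, ahead of Tigit at 3.02) and in HDM + Dex lungs (3.60 CPM per kb). Its CPM had a coefficient of variation of 121% in naïve aged and 82.6% in HDM + Dex lungs. Naïve aged replicate 4, at 25.0 CPM where the others lay at 1.04 to 6.48 CPM, makes much of that group's mean. The rank without this lung was not computed. These ranks are a description, and the spread of Ctla4 in the HDM group (CPM with a coefficient of variation of 49.5%) covers the gap to Cd4.

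**Figure D1:**
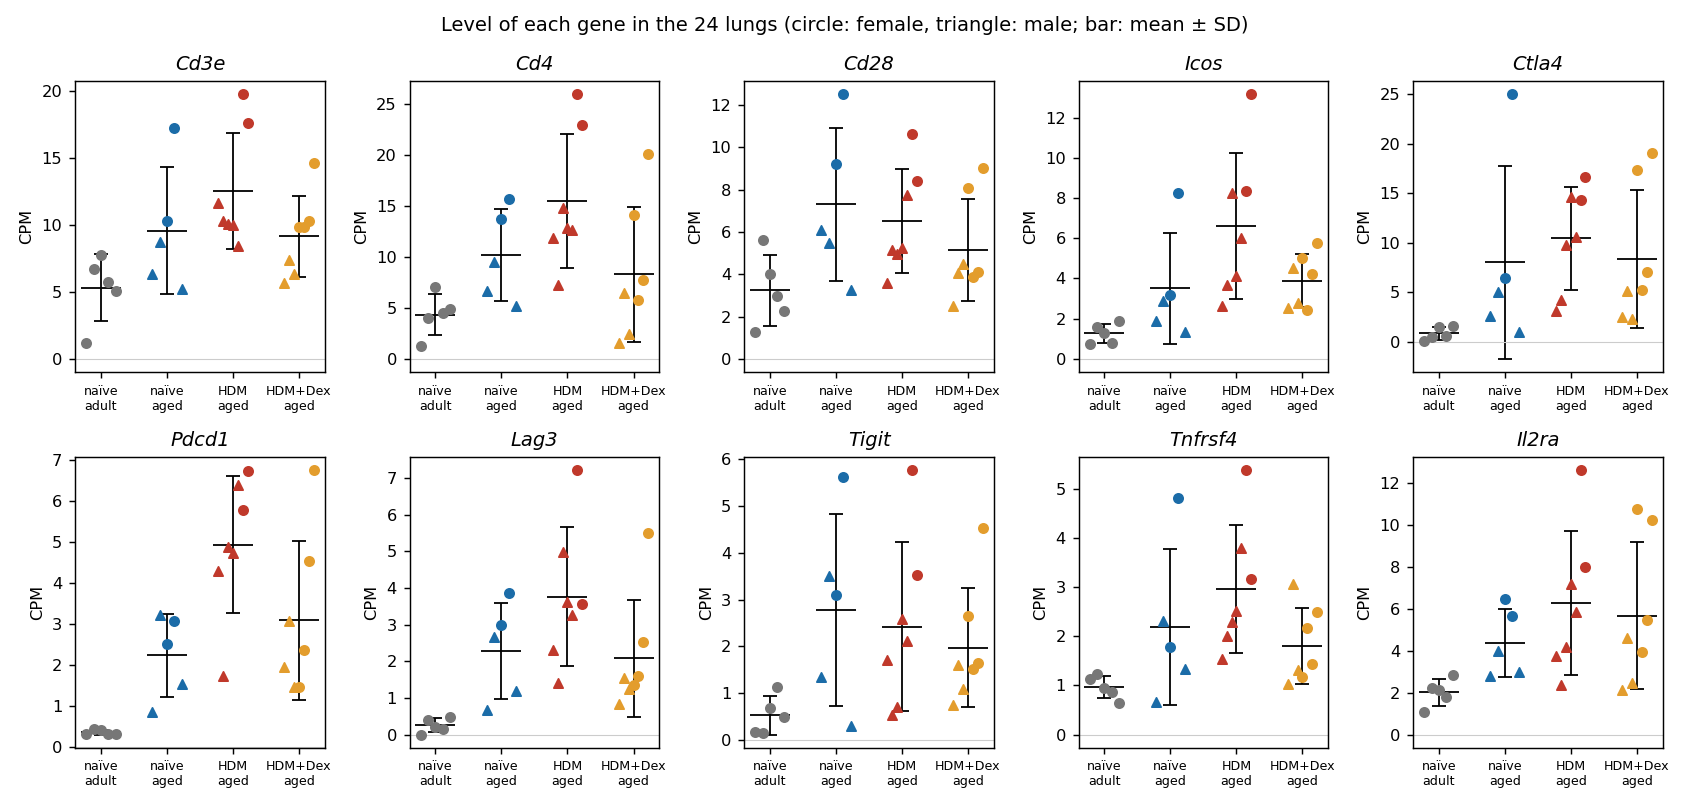
CPM (y axis, own linear scale in each panel) of the 10 genes in the 4 groups (x axis), with each point 1 lung, circles female, triangles male, and bars the mean ± SD. In naïve adult lungs Pdcd1 stayed between 0.323 and 0.445 CPM and Lag3 at or below 0.484 CPM, under every naïve aged lung, and the other 8 genes overlap between those groups.

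All 10 genes had a higher fitted level in aged than in adult naïve lungs, and Pdcd1 and Lag3, both inhibitory receptors, passed the test. Pdcd1 lay at 0.323, 0.445, 0.410, 0.325 and 0.323 CPM in the adult lungs and at 0.847, 3.22, 2.51, 3.07 and 1.53 CPM in the aged lungs. The lowest aged lung was above the highest adult lung. Its mean was 6.13-fold higher in aged lungs, with a log2 fold change of 1.18 ± 0.23 on the log2(CPM + 1) scale (SE; limma, adjusted p = 0.0184; higher in 25 of 25 pairs of lungs).

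Lag3, which binds MHC class II, was listed at 0 reads in naïve adult replicate 1 and lay at 0.395, 0.205, 0.162 and 0.484 CPM in the other adult lungs, an estimated 0 to 8.98 reads per library. In aged lungs it lay at 0.671, 2.66, 3.00, 3.87 and 1.19 CPM, again without overlap. The log2 fold change was 1.30 ± 0.27 (limma, adjusted p = 0.0303), and the ratio of means was 9.13. Calls were thus made for 2 of 10 genes, where 0.654% of all 17744 genes tested were called (0.592% as higher), and 2 of 10 did not overlap between groups, against 3.09% of all genes. Both calls were lost in some fits: Lag3 had a limma adjusted p of 0.0687 without naïve adult replicate 1 and also missed the threshold without naïve adult replicates 2, 3 or 4 or naïve aged replicate 3, both missed the threshold without naïve aged replicate 4 (0.0616 for Pdcd1 and 0.0856 for Lag3) or replicate 2, and both missed it when all 24 lungs shared 1 fit (0.0823 and 0.0787, limma, adjusted).

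Ctla4, which competes with CD28 for CD80 and CD86, had the largest fitted age difference of the 10 and did not pass. It lay at 0.0808, 0.544, 1.502, 0.649 and 1.67 CPM in adult lungs and at 2.58, 5.04, 6.48, 25.0 and 1.04 CPM in aged lungs. Naïve aged replicate 4 stood far above the rest of its group, and replicate 5 lay within the adult range. The log2 fold change was 1.77 ± 0.49 (limma, adjusted p = 0.133, exact permutation test of mean CPM p = 0.0238, two-sided and unadjusted).

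Tigit, which binds the poliovirus receptor and competes with CD226, had means of 0.522 ± 0.410 CPM in adult and 2.77 ± 2.06 CPM in aged lungs (SD, n = 5 each; log2 fold change 1.14 ± 0.35, limma, adjusted p = 0.186). The costimulatory receptors were at 3.24 ± 1.67 and 7.31 ± 3.61 CPM for Cd28 (log2 fold change 0.95 ± 0.31), at 1.26 ± 0.494 and 3.50 ± 2.75 CPM for Icos (0.85 ± 0.30) and at 0.966 ± 0.230 and 2.19 ± 1.59 CPM for Tnfrsf4 (0.58 ± 0.27). Cd3e (0.78 ± 0.35), Cd4 (1.07 ± 0.33) and Il2ra (0.81 ± 0.24) had fitted differences of similar size, and none of these 7 passed the adjusted test (limma, adjusted p from 0.160 for Il2ra to 0.438 for Tnfrsf4). All 10 had an unadjusted p under 0.05 in limma, and 8 of 10 in the exact permutation test. The share of all genes at these unadjusted thresholds was not counted, so these counts are a description only.

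Il2ra lay at 1.05 to 2.85 CPM in adult lungs and at 2.79, 3.99, 6.48, 5.63 and 2.97 CPM in aged lungs, so that the highest adult lung was just above the lowest aged one. Cd4 lay at 1.29 to 7.03 CPM in adult and at 6.64, 9.52, 13.8, 15.7 and 5.14 CPM in aged lungs. The wider pathway lists had 0 genes called with age (limma, and after rescaling Lef1 alone, at -0.86 with adjusted p = 0.0480). On the CPM scale 6 of 6 T cell receptor and CD3 chains and 14 of 16 identity and signalling genes had a value above 0. Their medians were 0.35 and 0.35, beside 0.19 over all genes tested. After rescaling 5 of 6 and 12 of 16 were above 0, with medians of 0.19 and 0.17 beside 0.005 over all genes.

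The members' median log2 fold change with age was 1.01, beside a median of 0.19 over all genes tested. When libraries were rescaled so that the median gene did not change (median of ratios), the members' median was 0.85 and Pdcd1 (1.05 ± 0.22, limma, adjusted p = 0.0360) and Lag3 (1.21 ± 0.26, limma, adjusted p = 0.0450) were again called, where 1.03% of all genes were. Sex was not balanced: the adult lungs were all female. Against the female aged lungs alone the gap was wider, with Ctla4 at 6.48 and 25.0 CPM and Pdcd1 at 2.51 and 3.07 CPM, and a fit with sex as a covariate called 6 of 10 (0.693% of all genes), adding Icos, Ctla4 (log2 fold change 2.96 ± 0.47, limma, adjusted p = 0.00355), Tigit and Il2ra. That fit sets 2 female aged lungs against 5 adult ones.

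Marker RNA of plasma cells and neutrophils differed with age. All 3 plasma cell markers tested were higher in aged lungs (Jchain by 5.23 on the log2 scale, limma, adjusted p = 0.000181), with summed levels of 3.02 to 20.1 CPM in adult and 66.7 to 572 CPM in aged lungs, as were 4 of 4 neutrophil markers tested, with sums of 12.5 to 48.8 and 65.5 to 194 CPM. After rescaling 2 of the 3 and 4 of 4 passed. The 7 T cell markers summed to 19.3 to 57.0 CPM in adult and 34.5 to 114 CPM in aged lungs, and 0 of 7 passed the test (limma, median log2 fold change 0.59). The part of such cells in the Pdcd1 and Lag3 differences was not tested.

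**Figure D2:**
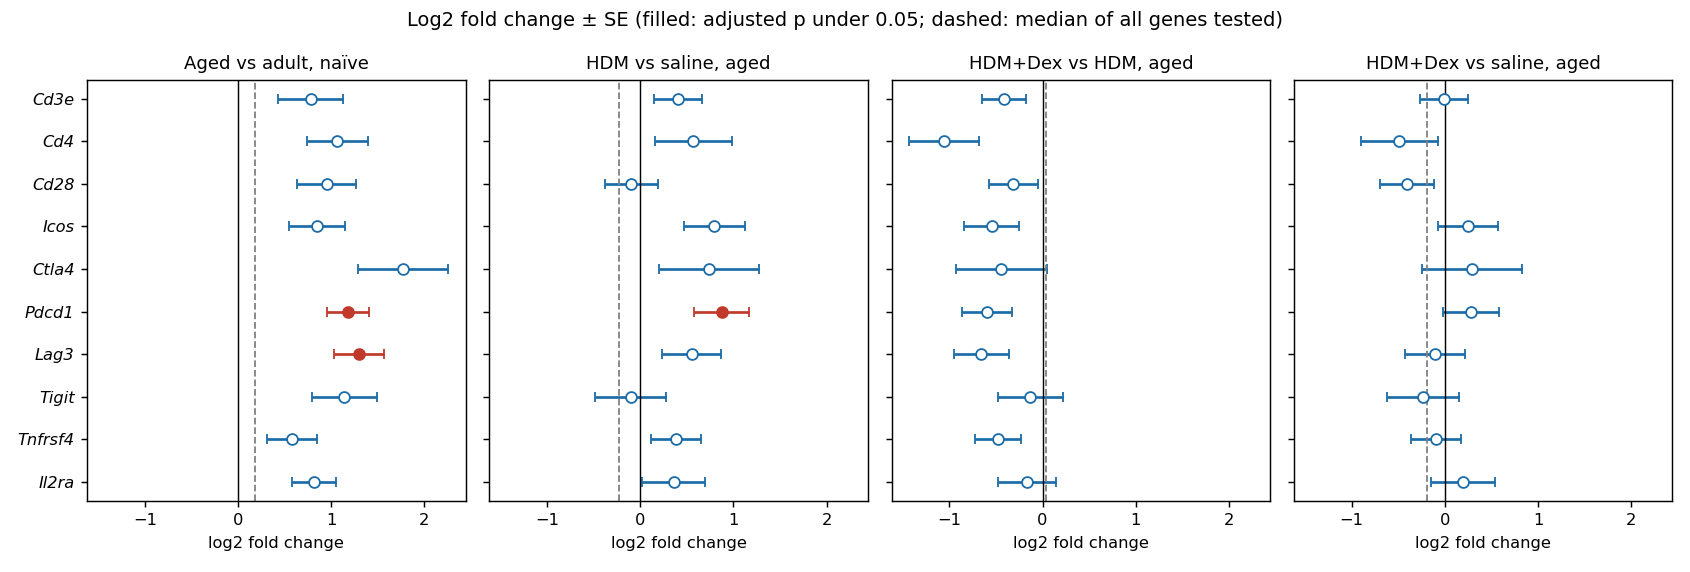
Log2 fold change ± SE (x axis) of each gene (y axis) in the 4 comparisons, on the log2(CPM + 1) scale, with filled red points for adjusted p under 0.05 and dashed lines at the median of all genes tested (0.19, -0.23, 0.03 and -0.19 from left to right). Filled points are Pdcd1 and Lag3 with age and Pdcd1 with HDM, and all 10 genes lie left of 0 for HDM + Dex against HDM.

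HDM challenge was compared with saline in aged lungs to find which of these receptors differed in inflamed tissue. Pdcd1 rose again, and it was the 1 gene of 10 that passed, where 25.3% of all genes tested were called (4.04% as higher). It lay at 0.847 to 3.22 CPM (median 2.51) in naïve aged lungs and at 1.74, 4.87 and 6.74 CPM (lowest, median, highest) in HDM lungs. The groups overlap through HDM replicate 2, the lowest, and HDM lungs were higher in 32 of 35 pairs. The log2 fold change was 0.88 ± 0.30 (limma, adjusted p = 0.0345; exact permutation test of mean CPM p = 0.0126, two-sided and unadjusted).

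The margin was narrow: the adjusted p of Pdcd1 passed 0.05 when any of HDM replicates 3, 4, 5 or 7 or naïve aged replicates 1, 3 or 5 was left out, up to 0.120 without naïve aged replicate 1. It was also 0.0775 with the 7SL share as a covariate (limma), and Pdcd1 was called in 24 of 33 alternatives. Icos came next, with 1.34 to 8.24 CPM (median 2.87) in naïve aged and 2.65 to 13.2 CPM (median 6.00) in HDM lungs, higher in 29 of 35 pairs and with a log2 fold change of 0.79 ± 0.33 (limma, adjusted p = 0.0756). The top naïve aged lung, replicate 4, held more Icos than 4 of the 7 HDM lungs.

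Ctla4 lay at 3.17, 10.6 and 16.6 CPM (lowest, median, highest) in HDM lungs, all within the naïve aged range of 1.04 to 25.0 CPM. The top of that range is replicate 4 alone. The other naïve aged lungs lay at 1.04 to 6.48 CPM, below the HDM median. Lag3 lay at 1.41, 3.56 and 7.22 CPM, beside 0.671 to 3.87 CPM in naïve aged lungs, where the ranges again overlapped. Ctla4 (log2 fold change 0.74 ± 0.54), Cd4 (0.57 ± 0.41), Lag3 (0.55 ± 0.32), Cd3e (0.41 ± 0.26), Tnfrsf4 (0.38 ± 0.27) and Il2ra (0.36 ± 0.34) did not pass (limma, adjusted p from 0.203 to 0.452). Cd28 and Tigit had values near 0, at -0.09 ± 0.29 and -0.10 ± 0.38. No gene of the 10 separated the groups, where 8.71% of all genes did.

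The scale mattered more here than with age. The median of all genes was -0.23 on the CPM scale, and the calls over all genes moved from 717 higher and 3765 lower to 1930 higher and 2046 lower after median-of-ratios rescaling. On that rescaled level Cd3e (0.63 ± 0.21, limma, adjusted p = 0.0380) and Icos (0.98 ± 0.30, limma, adjusted p = 0.0242) joined Pdcd1 (1.05 ± 0.29, limma, adjusted p = 0.0125), and 22.4% of all genes were called. With sex added to the rescaled fit, an alternative chosen after seeing the data, 6 of 10 were called (23.2% of all genes): Cd3e, Cd4, Icos, Pdcd1, Lag3 and Il2ra. Cd28 and Tigit turned from below to above 0 after rescaling (0.12 and 0.03), so no direction can be given for them.

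The ligands of these receptors were examined as a list of 10 genes, of which 7 were tested. Pdcd1lg2, which encodes PD-L2, a ligand of PD-1, was higher after HDM by 2.51 ± 0.42 on the log2 scale (limma, adjusted p = 0.000590), from 0.895 ± 0.403 CPM (SD, n = 5) to 11.96 ± 7.48 CPM (SD, n = 7), and it was the only one of the 7 called. Cd274, encoding the other PD-1 ligand PD-L1, was at 20.3 ± 6.10 and 37.4 ± 20.3 CPM (log2 fold change 0.75, limma, adjusted p = 0.0814), and after rescaling it passed (0.99, limma, adjusted p = 0.0114), as did Nectin2 (0.38, limma, adjusted p = 0.0234), a ligand of TIGIT. Cd80 and Cd86, shared by Cd28 and Ctla4, had log2 fold changes of -0.42 and 0.25 and did not pass. Il2 was not analysed here.

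Among 11 tested genes of other activation and checkpoint receptors, Tnfrsf9 (4-1BB, a costimulatory receptor) was higher by 2.31 on the log2 scale (limma, adjusted p = 0.000537), and Cd226 (-0.83, limma, adjusted p = 0.0212) and Nt5e (-0.57, limma, adjusted p = 0.0412) were lower, both short of the threshold after rescaling (limma, adjusted p = 0.0578 and 0.129), where Havcr2, the TIM-3 gene, was called as higher (0.71, limma, adjusted p = 0.00766). Of 16 genes of T cell identity and proximal signalling, Cd6 (0.97) and Ubash3a (0.85) were higher and 0 lower, with all 16 values above 0. After rescaling 7 of 16 were higher, with Bcl11b (0.87), Thy1 (0.77), Lat (0.77), Lcp2 (0.81) and Zap70 (0.58) added (limma, adjusted p from 0.00300 to 0.0213). Of the 6 T cell receptor and CD3 chains, 0 were called (limma), with a median log2 fold change of 0.04 beside -0.23 over all genes.

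Jak3, a kinase of the IL-2 receptor, was the 1 of 7 IL-2 receptor partners called, higher by 0.62 (limma, adjusted p = 0.0289). After rescaling 5 of 7 were higher, with Il2rb (0.74), Il2rg (0.67), Il7r (0.85) and Stat5a (0.52) added (limma, adjusted p from 0.0105 to 0.0425). Among genes of naïve and central memory T cells, S1pr1 (-1.09, limma, adjusted p = 0.00105) and Lef1 (-0.59, limma, adjusted p = 0.0427) were lower. After rescaling S1pr1 still passed (-0.84, limma, adjusted p = 0.00123) and Lef1 did not (limma, adjusted p = 0.186). S1pr1 is also strongly expressed by endothelium. Of 4 tested regulatory T cell genes Lrrc32 was lower (-0.44, limma, adjusted p = 0.0377, and 0.377 after rescaling), while Foxp3, the defining factor, was at 2.80 ± 0.929 CPM and 3.66 ± 1.66 CPM (log2 fold change 0.25, limma, adjusted p = 0.436). Of 3 tested follicular helper genes 0 were called (limma).

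Macrophage and dendritic cell markers were higher in the same lungs in part: Csf1r and Cd68 of 6 macrophage genes and Itgax of 6 dendritic cell genes. Their sums were 164 to 205 CPM in naïve aged and 149 to 528 CPM in HDM lungs for macrophages, and 125 to 182 and 174 to 293 CPM for dendritic cells, with no marker at 0. Itgax had means of 34.3 and 136 CPM within the dendritic cell sums. On the CPM scale 4 of 6 macrophage genes (median log2 fold change 0.72) and 4 of 6 dendritic cell genes (median 0.06) were above 0. Marco (-1.03), Siglecf (-0.13), Clec9a (-0.42) and Cd209a (-0.30) were below 0. On the CPM scale Il1rl1 was higher and Rora lower among 4 tested genes of type 2 innate lymphoid cells, S100a8 and S100a9 were lower among 4 neutrophil genes, Scgb1a1 and Cldn5 were lower among 5 lung genes, and 0 of 7 B cell and 0 of 3 natural killer cell genes passed (limma). After rescaling S100a9 and Cldn5 did not pass, and Adgre1 and Mrc1 (macrophage), Gata3 and the B cell gene Fcer2a were called as higher. Their part in the Pdcd1, ligand and Tnfrsf9 differences was not tested.

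Dexamethasone was compared with HDM alone in aged lungs to see which receptors differed with treatment. None of the 10 passed at an adjusted p under 0.05 (limma, 0 of 10), where 0.964% of all genes tested were called (0.214% as lower). Cd4, Pdcd1 and Lag3 (3 of 10) had an unadjusted p under 0.05 in limma, a threshold at which all genes were not counted. Over all genes, 133 were called as higher and 38 as lower, and 353 and 153 after median-of-ratios rescaling, which called 0 of the 10 (limma, lowest adjusted p = 0.0768, for Cd4). All 10 had a fitted level below that of HDM lungs, with a median log2 fold change of -0.46 beside 0.03 over all genes. No gene separated the groups, where 0.225% of all genes did.

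Cd4 had the largest difference. It lay at 7.30, 12.8 and 25.99 CPM (lowest, median, highest) in HDM lungs and at 1.58, 6.42 and 20.1 CPM in HDM + Dex lungs. Dex-treated lungs reached both far below and well into the HDM range, and they were lower in 39 of 49 pairs. The log2 fold change was -1.06 ± 0.38 (limma, adjusted p = 0.186; exact permutation test of mean CPM p = 0.0699, two-sided and unadjusted).

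Lag3 (-0.66 ± 0.29), Pdcd1 (-0.59 ± 0.27), Icos (-0.55 ± 0.30) and Tnfrsf4 (-0.48 ± 0.25) followed. Lag3 lay at 0.835, 1.54 and 5.51 CPM in HDM + Dex lungs, and replicate 7 was far above the others. Pdcd1 lay at 1.47, 2.36 and 6.75 CPM (lowest, median, highest) in HDM + Dex lungs, a lower median than the 4.87 CPM of HDM lungs, while the top lungs of both groups were level at 6.75 and 6.74 CPM. Ctla4 (-0.44 ± 0.49), Cd3e (-0.41 ± 0.24), Cd28 (-0.32 ± 0.26), Il2ra (-0.16 ± 0.31) and Tigit (-0.13 ± 0.35) had smaller values.

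The groups also differed in sex, with 4 of 7 HDM + Dex but 2 of 7 HDM lungs female. With sex as a covariate, Cd4 (-1.40 ± 0.26, limma, adjusted p = 0.0209) and Cd3e (-0.64 ± 0.14, limma, adjusted p = 0.0330) were called as lower, where 1.65% of all genes were called. Within the male lungs Cd4 was at 7.30 to 14.8 CPM in HDM (n = 5) and 1.58 to 6.42 CPM in HDM + Dex (n = 3), and within the female lungs at 23.02 to 25.99 CPM (n = 2) and 5.81 to 20.1 CPM (n = 4), without overlap in either sex. Cd3e likewise did not overlap in either sex, at 8.45 to 11.6 against 5.66 to 7.40 CPM in males and 17.6 to 19.8 against 9.83 to 14.6 CPM in females. These lungs are those of the fit, so the ranges describe its calls and are no separate support for them. The share of all genes without overlap in either sex was not computed.

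The pathway lists had 0 genes called in this comparison (limma), among them 0 of 6 T cell receptor and CD3 chains, 0 of 16 identity and proximal signalling genes and 0 of 7 ligands. The identity and proximal signalling genes had 0 of 16 values above 0 and a median log2 fold change of -0.44, and the receptor chains 0 of 6 and -0.43. After rescaling Bcl11b (-0.64, limma, adjusted p = 0.0491) and Zap70 (-0.62, limma, adjusted p = 0.0387) were called as lower. Pdcd1lg2 was at 5.47 ± 3.27 CPM (SD, n = 7) with Dex, beside 11.96 CPM without (log2 fold change -0.87, limma, adjusted p = 0.308). Markers of other cells were at values below 0 for 6 of 6 macrophage genes (Cd68 -0.83, Csf1r -0.58) and for Itgax (-0.88), and above 0 for 4 of 4 heart muscle genes (median 1.41), and none of these passed (limma). Macrophage markers summed to 149 to 528 CPM in HDM and 115 to 374 CPM in HDM + Dex lungs, and heart muscle markers to 18.0 to 382 and 45.3 to 1049 CPM. Their part in the values of the 10 genes was not tested.

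Dex-treated challenged lungs were also set against naïve aged lungs, a comparison that shares its samples with the previous ones. None of the 10 genes passed (limma, 0 of 10, and 0 at an unadjusted p under 0.05), where 1.89% of all genes were called, and none separated the groups, where 2.40% did. Log2 fold changes ran from -0.49 ± 0.41 (Cd4) to 0.29 ± 0.54 (Ctla4), and Pdcd1 was at 0.28 ± 0.30. Side by side, Pdcd1 had means of 0.365, 2.24, 4.93 and 3.09 CPM in adult naïve, aged naïve, HDM and Dex-treated lungs, and Cd4 of 4.35, 10.2, 15.5 and 8.32 CPM. Pdcd1lg2 (log2 fold change 1.64, limma, adjusted p = 0.0455) and Tnfrsf9 (1.83, limma, adjusted p = 0.0189) were higher than in naïve aged lungs, and S1pr1 was lower (-1.08, limma, adjusted p = 0.0111). After rescaling Pdcd1lg2 did not pass (1.76, limma, adjusted p = 0.0751), while Tnfrsf9 (limma, adjusted p = 0.0287) and S1pr1 (-0.87, limma, adjusted p = 0.0101) did.

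Whether the receptors differed beyond the T cell receptor complex itself was asked by subtracting, in each lung, the mean log2(CPM + 1) of Cd3d and Cd3g from every gene. On this scale 0 of 10 genes passed in each of the 4 comparisons (limma). Whether a 2-fold change in these 10 genes would pass on this scale was not tested. The counts at an unadjusted p under 0.05 were 2 (Ctla4 and Lag3) with age, 1 (Pdcd1) with HDM, 1 (Cd4) for HDM + Dex against HDM and 0 for HDM + Dex against saline. Of all genes, 0.913, 4.97, 2.15 and 0.704% were called in that order at an adjusted p under 0.05. These shares belong beside the 0 of 10 and not beside the unadjusted counts.

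Ctla4 came closest. Relative to the 2 chains, its level was -1.64 ± 0.267 in naïve adult (SD, n = 5), -0.38 ± 0.836 in naïve aged (n = 5), 0.29 ± 0.737 in HDM (n = 7) and 0.20 ± 0.606 in HDM + Dex lungs (n = 7), in log2 units. The difference with age was 1.26 ± 0.36 (SE; limma, adjusted p = 0.0527). It passed in 6 of 19 alternatives: with a pseudocount of 0.1, with median-of-ratios rescaling, with quantile normalization, with sex as a covariate (2.02, limma, adjusted p = 0.000770), with a reference of 4 genes (1.38, limma, adjusted p = 0.00919) and without naïve aged replicate 5. In the others it did not pass, with an adjusted p up to 0.456 at a pseudocount of 5 (limma). Lag3 (0.79 ± 0.36) and Pdcd1 (0.67 ± 0.36), called on the plain scale with age, had adjusted p-values of 0.483 and 0.562 here (limma). Both lay at or below 0.484 CPM in adult lungs, under the added 1 CPM, so this scale compresses their ratio to the chains. With a pseudocount of 0.1 Lag3 passed (2.16, limma, adjusted p = 0.0113), its only call in 18 alternatives, and Pdcd1 did not (limma, adjusted p = 0.143).

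**Figure D3:**
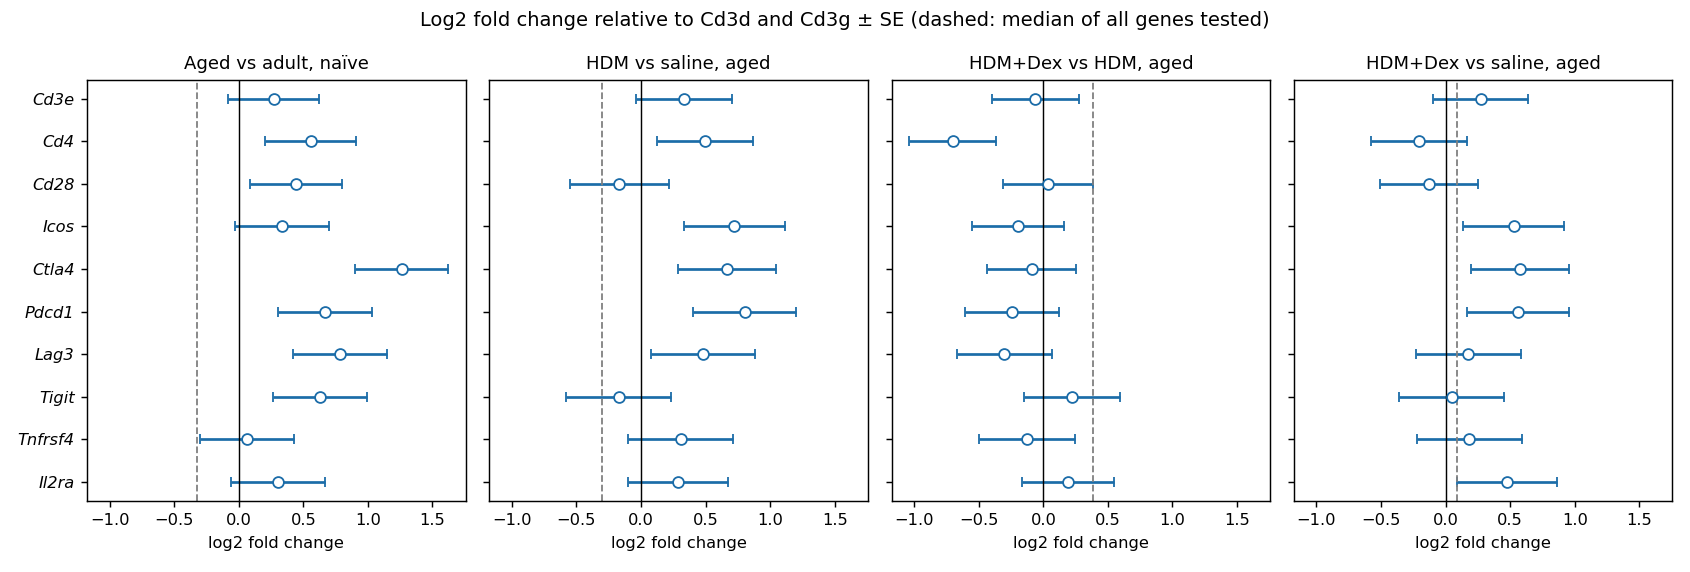
Log2 fold change ± SE (x axis) of each gene (y axis) after the mean log2(CPM + 1) of Cd3d and Cd3g was subtracted in each lung, with dashed lines at the median of all genes tested. All points are open, since 0 of 10 genes passed in any comparison, and Ctla4 with age lies farthest from 0 at 1.26.

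CD28 and CTLA-4 share their ligands, so the balance of their transcripts was taken as a ratio of CPM in each lung, a measure chosen after the values were seen. The ratio of Ctla4 to Cd28 was 0.0626, 0.0965, 0.373, 0.218 and 0.738 in naïve adult lungs and 0.424, 0.923, 0.702, 1.996 and 0.318 in naïve aged lungs. In HDM lungs it ran from 0.831 to 2.77 (median 1.38) and in HDM + Dex lungs from 0.517 to 2.15 (median 1.37). The ratio is not corrected for gene length, so it compares lungs and not the levels of both genes. The range of naïve aged lungs overlaps that of each other group. As log2 ratios of CPM + 1, the difference was 0.82 with age (exact permutation p = 0.103), 0.83 with HDM (p = 0.0707) and -0.13 for HDM + Dex against HDM (p = 0.685). Adjusted over the 4 comparisons the lowest p was 0.155 (exact permutation tests, two-sided), so none of these differences passed. The added 1 CPM compresses the ratio of low levels, so the tested order differs from that of the listed ratios. Naïve adult replicate 1 had the lowest ratio, on an estimated 0.998 Ctla4 reads. Its log2 value of -1.08 was above the -2.10 of replicate 2. The plain ratio was not tested.

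Lungs within a group differed widely, and for Cd3e female and male aged lungs lay apart. In each of the 3 aged groups every female lung had more Cd3e than every male lung: 10.3 to 17.2 against 5.19 to 8.75 CPM in naïve aged, 17.6 to 19.8 against 8.45 to 11.6 CPM in HDM, and 9.83 to 14.6 against 5.66 to 7.40 CPM in HDM + Dex lungs. Such separation was seen for 7 of 10 genes in naïve aged, 6 of 10 in HDM and 2 of 10 in HDM + Dex lungs. The groups held 2 female and 3 male, 2 and 5, and 4 and 3 lungs in that order, so few lungs make such a separation. The share of all genes with such separation was not computed, so these counts are a description only. Pdcd1 and Tnfrsf4 showed it in none.

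In a fit over the 19 aged lungs, chosen after seeing the data, 8 of 10 genes were higher in female lungs, where 13.8% of all genes were called (13.6% as higher in females). The log2 fold change was 0.80 ± 0.13 for Cd3e (limma, adjusted p = 0.00311), 1.22 ± 0.22 for Cd4 and 1.45 ± 0.32 for Ctla4. After median-of-ratios rescaling 0 of 10 were called (limma, Cd3e 0.56 ± 0.13 with adjusted p = 0.0905), where 0.107% of all genes were, and the median of all genes moved from 0.24 to 0.01. The 7SL share moved with sex in the challenged groups, at 27.1 to 33.97% in male and 14.96 to 15.4% in female HDM lungs, and at 26.8 to 31.6% in male and 11.3 to 30.2% in female HDM + Dex lungs. Its part in the female-to-male difference was not tested apart from sex, and with the 7SL share as a covariate 0 of 10 passed (limma).

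**Figure D4:**
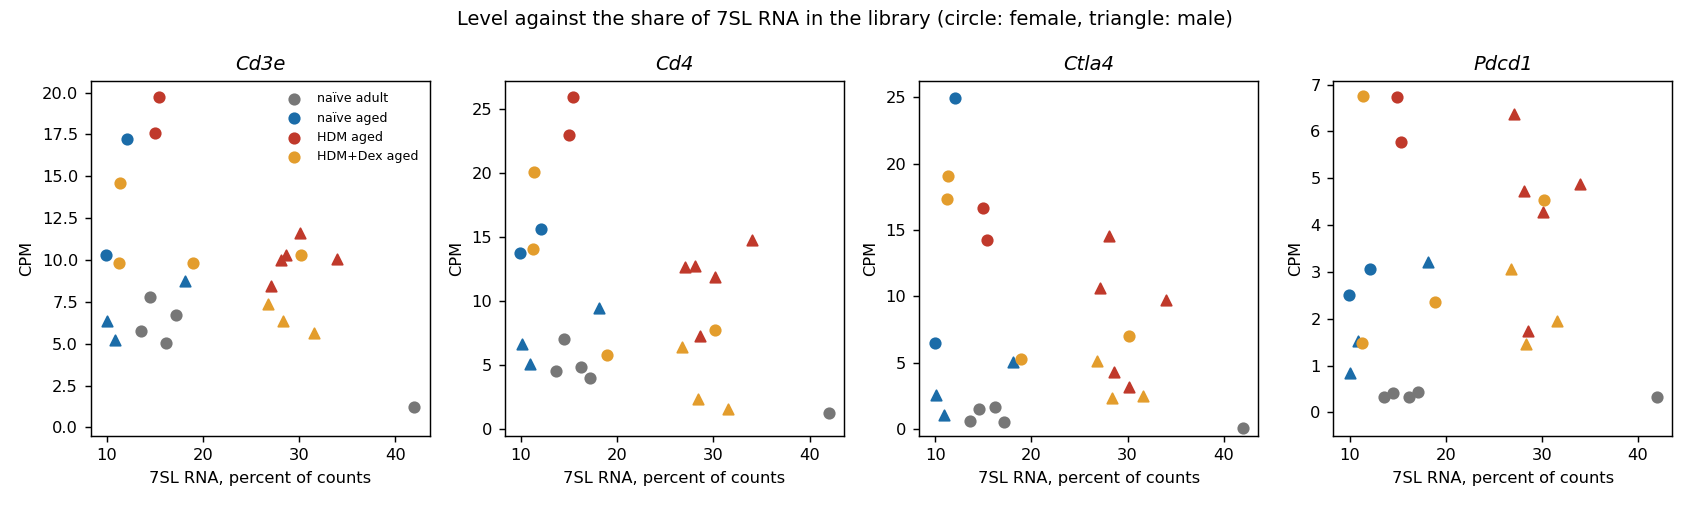
CPM (y axis) of Cd3e, Cd4, Ctla4 and Pdcd1 against the share of counts from 7SL RNA in percent (x axis), with each point 1 lung, coloured by group, circles female and triangles male. The 2 female HDM lungs, near 15% 7SL, hold the highest Cd3e of the 24 lungs, and naïve adult replicate 1, at 42.0%, the lowest.

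The 10 genes varied together within groups. After median-of-ratios rescaling and removal of group means, all 45 pairs of genes had a Pearson's r above 0 over the 24 lungs, with a median of 0.62 and a range of 0.28 (Cd28 and Pdcd1) to 0.85 (Cd4 and Il2ra), and 36 pairs were above 0.5. Cd4 and Ctla4 had an r of 0.83, Ctla4 and Il2ra 0.80, Pdcd1 and Lag3 0.79, and Icos and Ctla4 0.78. Tnfrsf4, the OX40 gene, had an r of 0.30 with Cd4 and 0.29 with Cd3e. These values describe lungs that share library depth, composition and sex, and low-count genes such as Tigit carry more counting error. The r of pairs drawn from all genes was not summarized, so the values are not shown to be particular to these 10 genes.

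**Figure D5:**
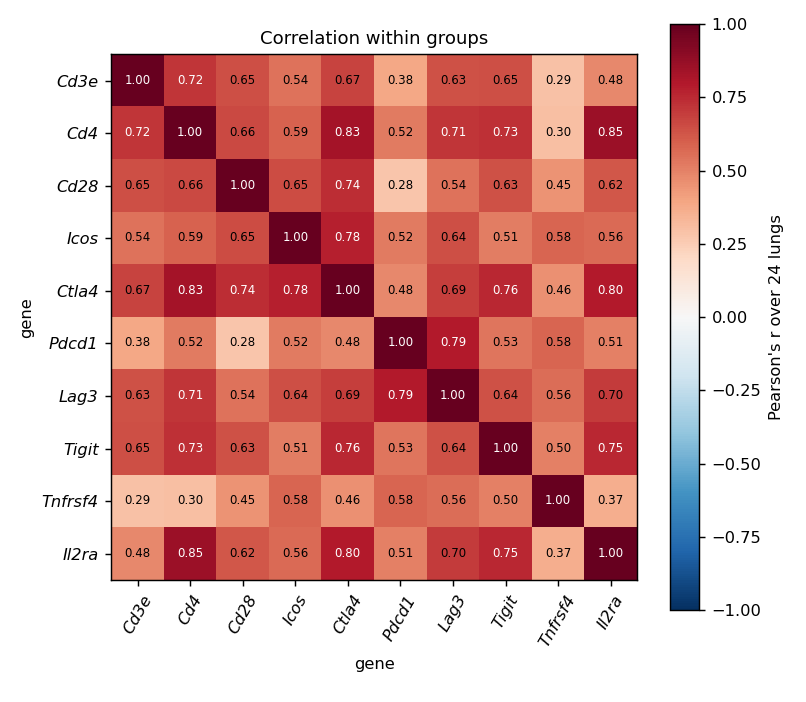
Pearson's r between the 10 genes (both axes) over 24 lungs, on log2(CPM + 1) after median-of-ratios rescaling and removal of group means, with colour from -1 (blue) to 1 (red). All 45 pairs lie above 0, from 0.28 to 0.85.

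The genes most like each member by the same measure, were sought over 24 lungs and 17744 genes. For Ctla4 they were Ptpn22 (r = 0.93), a phosphatase of lymphocyte signalling, Plcg2 (0.85) and Tespa1 (0.84). For Cd4 they were Ccl5 (0.90), Il2rg (0.89), the common gamma chain, and Cd86 (0.89), and for Cd3e Sh2d2a (0.86), H2-M3 (0.81) and Wipf1 (0.79). Il2ra was most like Knl1 (0.92) and Mki67 (0.91), both genes of dividing cells, and Cxcl13 (0.91).

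Cd28 was most like Itga4 (0.82), Tnfaip3 (0.81) and Gimap6 (0.80), and Icos like Il2rb (0.83), the IL-2 receptor beta chain, Tnfaip3 (0.82) and Cd274 (0.79). For Pdcd1 the list was H2-K1 (0.85), Sting1 (0.84) and Fermt3 (0.83), and for Lag3 it was Chaf1a (0.80), H2bc13 (0.79) and Pdcd1 (0.79). Tigit was most like Pou2f2 (0.83), Samsn1 (0.82) and the antibody gene segment Ighv1-53 (0.80). Tnfrsf4 had the weakest partners, Inpp5d (0.75), Naa10 (0.71) and the pseudogene Rps15a-ps4 (0.70).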

How the data were processed

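Lung RNA-Seq of 24 mice was used. The authors sequenced strand-specific mRNA libraries and ran a Picard-STAR-limma pipeline. The submitters' processing notes name STAR, FastQC, DESeq2 and mm9, without versions, but the table's coordinates match GENCODE M21 (GRCm38) for 23104 of 23891 symbols. The authors deposited CPM values with a constant of 0.0001 in every cell, which were used as deposited. Depth was estimated from the spacing of low values, of which 81.1 to 85.9% were whole reads, so no count test was run. limma (version 3.58.1 in R 4.3.3) was run on log2(CPM + 1) over the 17744 genes averaging 1 CPM or more, with trended variances and Benjamini-Hochberg adjustment at 0.05, in 1 fit of the 19 aged and 1 of the 10 naïve lungs. Fold changes on this scale understate those of low genes. On simulated data with the HDM design, 63.3% of 2-fold and 100% of 4-fold changes were recovered over 17965 genes, and 40.2% and 97.9% relative to the CD3 chains over 17999 genes. These rates were not obtained for the 10 members, and recovery at the members' own spread was not tested. Within groups, the members' CPM had coefficients of variation from 15.9% (Pdcd1, naïve adult) to 121% (Ctla4, naïve aged). Exact permutation tests used scipy 1.17.1. The members and lists were chosen with earlier results of these data known. All 10 members are named, with the genes of each list that passed, or the largest, and the 3 genes most like each member. Samples of a group are separate mice by their labels. Alternatives were other pseudocounts, filters, scalings, covariates, fits and left-out lungs. A listed gene is not reported here.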

Additional observations from a re-analysis of the deposited data

Results flagged for a closer look

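Of 40 combinations of gene and group, 3 had a lung far from its group by Dixon's ratio, where chance would give about 2. Icos (8.24 CPM, the others 1.34 to 3.19) and Ctla4 (25.0 CPM, the others 1.04 to 6.48) both stood apart in naïve aged replicate 4, a female lung. Lag3 stood apart in HDM + Dex replicate 7, also female, at 5.51 CPM where the other 6 lungs lay at 0.835 to 2.51 CPM.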

How the results depend on the processing

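Members called moved with the scale and covariates. For HDM against saline (1), 3 were called with median-of-ratios rescaling, quantile normalization, 7SL RNA and rRNA genes left out, or sex as a covariate, 4 with the 7SL share as a covariate, 6 with sex and rescaling, and 0 with a replicate block or a minimum of 5 CPM, which kept 4 of 10 genes. For HDM + Dex against HDM (0), 2 were called with sex, with or without rescaling, and 1 with the 7SL share. For HDM + Dex against saline (0), 1 was called with sample quality weights (Cd28, -0.64, limma, adjusted p = 0.0451). For age (2), 1 was called with a pseudocount of 5 or the 7SL share, 0 with all 24 samples in one fit or a minimum of 5 CPM, 4 with quality weights, 6 with sex, 5 with sex and rescaling, and 8 by exact permutation at an unadjusted p under 0.05. Relative to the CD3 chains (0 each), age gave 2 with a pseudocount of 0.1 and 1 with rescaling, quantile normalization, the 4-gene reference or sex, and HDM + Dex against HDM gave 1 with sex (Cd4). Female against male (8) gave 0 under rescaling, quantile normalization, the 7SL share, the block, or 7SL and rRNA left out.

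Leaving out 1 lung at a time gave 0 to 2 for HDM against saline (2 without HDM replicate 1 or naïve aged replicate 4, 0 without HDM replicates 3, 4, 5 or 7 or naïve aged replicates 1, 3 or 5), 0 to 0 for both Dex comparisons, 0 to 4 for age (4 without naïve aged replicate 5, 0 without naïve aged replicate 2 or 4, 1 without naïve adult replicates 1 to 4 or naïve aged replicate 3), 4 to 8 for sex (4 without HDM replicate 6 or 7, 5 without HDM + Dex replicate 1 or 3), and relative to the CD3 chains 0 to 1 for age and 0 to 0 otherwise. Same-numbered lungs correlated at -0.236 to 0.401, so replicate numbers do not pair them, and the replicate block moved the count to 0 for HDM against saline (Pdcd1 0.64, limma, adjusted p = 0.0854) and female against male alone. Over all genes, alternatives other than a left-out lung gave 1571 to 7876 calls for HDM against saline (4482), 1 to 611 for HDM + Dex against HDM (171), 34 to 5471 for HDM + Dex against saline (335) and 65 to 784 for age (116). Higher and lower calls moved from 79 and 256 to 87 and 80 for HDM + Dex against saline and from 105 and 11 to 103 and 80 for age under rescaling. Of the members' values, 0 called ones changed sign, and 49 uncalled ones did (23 relative to the CD3 chains). The cause of these moves was not tested. At a floor of 0.0908 to 0.299 CPM, Lag3, Pdcd1, Tigit and Ctla4 in adult lungs rest on few reads, and p-values cover the spread between these mice only.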
